A study of Mus musculus with 9 samples.

Results

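The unexposed mouse hippocampus at postnatal day 21 was described from the 3 sham-treated control libraries of a series of 9 bulk RNA-seq libraries. All genes whose mean over the controls was at least 1 TPM, a length-scaled transcript share, were taken, which gave 14023 of the 23412 gene symbols in the deposited table (59.9%). The other 6 libraries came from pups exposed to perfluorooctane sulfonate (PFOS), a persistent surfactant, through the milk of dams gavaged daily with 1 mg/kg. In 3 of them the exposure ran from day 1 to 7 (PFOS P1-7) and in 3 from day 8 to 14 (PFOS P8-14), and the series asked which window matters for later brain function. Every library, exposed or not, is labelled hippocampus, wild type and day 21. Nothing in the labels ties the samples to separate animals or litters, so any p-value measures only the spread between these samples, which may be technical.

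The hippocampus passes information from granule neurons of the dentate gyrus to pyramidal neurons of the CA fields, with local inhibition by GABAergic interneurons. Around weaning in the mouse its axons are being myelinated, its synapses change receptor subunits, and granule neurons are still being born. TPM scale reads by transcript length and by library total, which puts genes on a common scale. Differences between the controls still moved with transcript length, as described below. A TPM table does not keep the sequencing depth, which is unknown here.

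The tissue label was checked against markers of hippocampal neurons. Snap25, a release-machinery protein of neurons, stood at 1702 ± 30.5 TPM (SD, n = 3). The glutamate transporter gene Slc17a7 of hippocampal principal neurons stood at 1408 ± 124 TPM, against 10.2 ± 5.02 TPM for Slc17a6, its counterpart in thalamus. All 12 pan-neuronal genes and all 12 dentate granule genes reached 1 TPM. So did all 10 CA1 genes, all 8 CA2 genes and all 10 CA3 genes. Genes of neighbouring tissue passed it too: 8 of 9 for striatum, 7 of 8 for thalamus and 9 of 10 for neocortex and subiculum. These counts therefore do not tell hippocampus from its neighbours. Cd3e, a T cell gene, was listed at 0 in every control.

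Levels ran over a wide range. In the controls 9633 genes reached 10 TPM, 1909 reached 100 TPM and 137 reached 1000 TPM, while 5732 symbols were listed at 0 in all 3. The median of the genes above the threshold was 21.3 TPM and the quartiles were 7.19 and 54.6 TPM. Just outside the threshold lay Rgsl1 and Calr4, both at 0.997 TPM, and just inside it lay D630033O11Rik, at 1 TPM. The threshold fell in a smooth part of the range, with 121 genes between 0.9 and 1 TPM and 138 between 1 and 1.1 TPM. The genes above it carried nearly all of the signal, from 99.89% to 99.91% of TPM per control.

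The 10 genes of highest mean carried 4.96 ± 0.321% of all TPM, the top 50 carried 14.5 ± 1.14% and the top 1000 carried 58.0 ± 1.53% (SD, n = 3). Counting down from its own most abundant gene, control 1 needed 695 genes to reach 50% of its TPM. Control 2 needed 598 and control 3 needed 583. Control 1 was thus spread over more genes than the other controls, within the 634 to 720 that the exposed libraries needed. Genes annotated as protein-coding carried 93.3 ± 0.262% of TPM and long non-coding RNA genes 0.702 ± 0.0424%. Symbols without a match in the annotation carried 5.47 ± 0.261%.

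**Figure D1:**
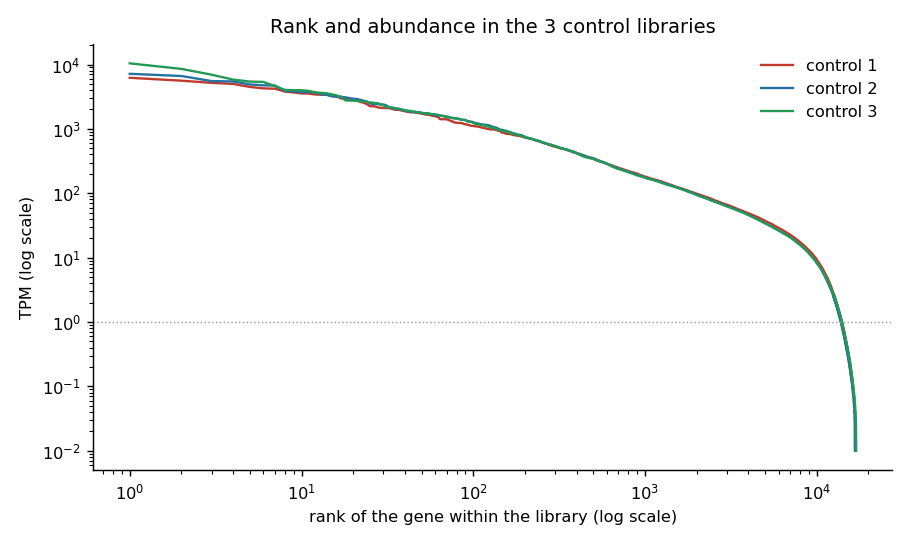
TPM of every gene (log scale) against its rank within the library (log scale), 1 line per control; the dotted line marks 1 TPM. The 3 curves lie on each other over most of the range and part at the top ranks, where control 3 begins at 10420 TPM with Ttr.

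The most abundant transcript was that of Mbp, myelin basic protein, which compacts the myelin sheath. It stood at 5606, 7168 and 8542 TPM in controls 1, 2 and 3. Control 1 was the lowest, and all 6 exposed libraries (7472 to 10585 TPM) lay above control 1 and control 2. Tmsb4x, which encodes the actin-binding peptide thymosin beta 4, ranked second at 4258, 6626 and 6938 TPM, again lowest in control 1. Cst3, a secreted protease inhibitor made by glia, came after it and was even across libraries at 6219, 5452 and 5827 TPM. The ferritin heavy chain gene Fth1 (5122 ± 558 TPM) and the glycolytic enzyme gene Gapdh (4839 ± 305 TPM) came next.

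The following ranks mixed glial, neuronal and general cell functions. Apoe, the lipid carrier of astrocytes, stood at 4331 ± 371 TPM. The polyubiquitin gene Ubb stood at 4294 ± 607 TPM, the cyclophilin gene Ppia at 3746 ± 225 TPM, and Cpe, which trims neuropeptide precursors, at 3685 ± 214 TPM. Sepw1, a small selenoprotein gene, stood at 4670 ± 899 TPM. Hpca encodes hippocalcin, a calcium sensor of hippocampal pyramidal neurons, and stood at 3397 ± 681 TPM. Nrgn, which encodes the calmodulin-binding postsynaptic protein neurogranin, stood at 2728 ± 79.3 TPM. Others of the top 25 were the respiratory chain genes Cox8a, Cox4i1 and Atp5k, the translation genes Eef1a1 and Rps29, and Aldoa, Atp6v0c, Tuba1a, Calm2, Calm3 and Ttr.

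Ttr held its place through 1 library. This gene encodes transthyretin, the thyroid hormone carrier that choroid plexus epithelium secretes into the ventricles. It stood at 52.8 and 35.1 TPM in controls 1 and 2 and at 10420 TPM in control 3, where it was the most abundant gene of all. Its rank of 12 by mean therefore describes no single control.

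Several abundant families divided their transcripts between their genes in similar proportions in the 3 controls. The calcium/calmodulin kinase II genes did so less evenly, and the beta-thymosins did not. Actb and Actg1, the non-muscle actins, contributed 49.6% and 50.4%, with an SD of 0.143 percentage points. Of the elongation factor 1 alpha transcripts, 76.0 ± 0.920% came from the general gene Eef1a1 and the rest from Eef1a2, the form of mature neurons and muscle. Ubb gave 89.6 ± 0.683% of polyubiquitin transcripts. Of the calcium/calmodulin kinase II genes, Camk2a gave 60.1 ± 4.93% and Camk2b 35.8 ± 5.03%. In controls 1, 2 and 3 Camk2a gave 65.8%, 57.8% and 56.8%, and Camk2b 30.0%, 38.2% and 39.1%. The Camk2a level itself was 2251, 1584 and 1408 TPM, highest in control 1. Tmsb10, the thymosin of immature neurons, made up 19.0%, 7.00% and 7.75% of the beta-thymosin transcripts in controls 1, 2 and 3, so that the split between Tmsb4x and Tmsb10 also set control 1 apart.

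Promoter sequences were searched for the TATA box letters of a core promoter. Of the top 50 genes, 34 had an entry in the RefSeq promoter table (GRCm38.p6). The letters TATAAA stood within the 250 bases upstream of the start, on either strand, in 4 of them: Ppia, Ckb, Tubb2a and Fth1. That is 11.8% of the 34. Of all 27025 promoters, 3504 held these letters, and over the 10334 entries of genes above 1 TPM the share was 6.14%. The stretches of Ppia (chr11:6415617-6415866 on the plus strand), the brain creatine kinase gene Ckb (chr12:111672339-111672588 on the minus strand) and the beta-tubulin gene Tubb2a (chr13:34078009-34078258 on the minus strand) are shown because the TATAAA, in capitals, begins 29, 28 and 29 bases before the start. In Tubb2a the palindrome TGACGTCA, the cAMP response element, is also in capitals; it stood in 1.62% of all promoters.

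Ppia: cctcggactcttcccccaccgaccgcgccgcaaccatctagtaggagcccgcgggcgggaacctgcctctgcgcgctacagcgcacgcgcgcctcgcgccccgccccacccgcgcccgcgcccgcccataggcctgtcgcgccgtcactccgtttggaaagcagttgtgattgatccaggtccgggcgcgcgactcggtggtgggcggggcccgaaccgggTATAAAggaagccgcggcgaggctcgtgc

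Ckb: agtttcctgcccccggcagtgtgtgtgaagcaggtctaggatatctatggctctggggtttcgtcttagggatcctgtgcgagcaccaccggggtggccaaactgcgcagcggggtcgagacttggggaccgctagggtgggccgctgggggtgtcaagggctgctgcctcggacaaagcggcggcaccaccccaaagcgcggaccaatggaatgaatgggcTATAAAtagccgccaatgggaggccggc

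Tubb2a: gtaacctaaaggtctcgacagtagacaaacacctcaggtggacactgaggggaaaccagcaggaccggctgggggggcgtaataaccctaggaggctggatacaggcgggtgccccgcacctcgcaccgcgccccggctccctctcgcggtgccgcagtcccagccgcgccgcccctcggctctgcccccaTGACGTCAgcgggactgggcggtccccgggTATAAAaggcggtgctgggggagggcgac

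In the controls Ckb stood at 1979, 1872 and 1855 TPM and Tubb2a at 2895, 1620 and 1791 TPM. Ckb was even, while Tubb2a was highest in control 1. A match of letters is a description of the sequence and does not show that a factor binds there.

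By class, the protein synthesis and energy machinery took the largest named shares. The 83 cytosolic ribosomal protein genes above 1 TPM took 6.60%, 8.83% and 8.33% of TPM in controls 1, 2 and 3. Control 1 lay inside the range of the exposed libraries (6.12 to 6.83%), and controls 2 and 3 lay above it. Nuclear genes of oxidative phosphorylation took 5.19%, 6.07% and 6.22%, with the same arrangement against an exposed range of 4.85 to 5.64%. Tubulins, actins and other cytoskeletal genes took 4.05 ± 0.286%, astrocyte genes 2.41 ± 0.124%, and postsynaptic scaffold, calmodulin and CaMKII genes 2.01 ± 0.135%. Synaptic vesicle and release genes took 1.94 ± 0.191% and glycolytic enzymes 1.68 ± 0.0957%. Genes in no named class carried 57.6 ± 1.42%. The table has no symbols for genes encoded by the mitochondrial genome.

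Control and exposed class shares were compared with a two-sided exact permutation test of 3 against 6 libraries, whose 84 splits allow no p below 0.0119. Of 27 classes, 0 passed at an adjusted p below 0.05, and 3 had an unadjusted p below 0.05. These were ribosomal proteins (1.54 percentage points higher in control, exact p = 0.0238), oxidative phosphorylation (0.645 points higher, exact p = 0.0476) and histones (exact p = 0.0476), all with an adjusted p of 0.241. With 27 classes, at least 7 would have had to reach the smallest p for any to pass.

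**Figure D2:**
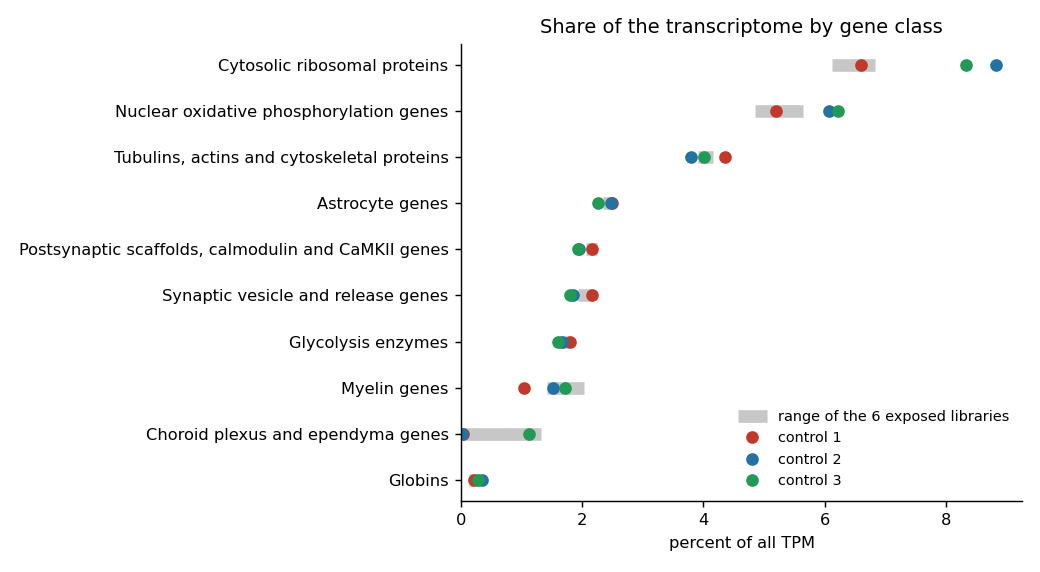
Percent of all TPM taken by 10 gene classes (horizontal axis, starting at 0); points are the 3 controls and grey bars span the 6 exposed libraries. For ribosomal and oxidative phosphorylation genes control 1 lies within the grey bar and controls 2 and 3 to its right, while for myelin genes control 1 lies to the left of the bar.

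Genes used as markers of the dentate gyrus and the CA fields are given here as TPM levels, and their source within the tissue was not tested. In tissue RNA, fewer cells of a type and less RNA per cell cannot be told apart. Among dentate granule genes, C1ql3, a secreted synaptic organiser, stood at 94.7, 125.8 and 70.8 TPM and Calb1, a calcium buffer, at 75.7, 100.2 and 68.3 TPM. Control 2 was the highest and control 3 the lowest for both, and 9 of the 12 dentate genes were highest in control 2 and 8 lowest in control 3. Of all 14023 genes, 52.5% were highest in control 1, 24% in control 2 and 23.3% in control 3, and 29%, 32.6% and 37.9% were lowest there. The exception with the widest spread was Prox1, the transcription factor of granule neuron identity, at 49.7, 27.4 and 17.1 TPM.

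Of the CA1 genes, Wfs1 stood at 145 ± 20.7 TPM, Mpped1 at 145 ± 17.2 TPM and Fibcd1 at 133 ± 21.1 TPM. Of the CA2 genes, Pcp4, a calmodulin regulator, stood at 592, 538 and 719 TPM, and 6 of 8 were highest in control 3. The CA2 list shares Sostdc1 with the choroid plexus list. The CA3 genes varied least of the CA fields, with a median SD of 0.18 on the log2(TPM + 1) scale and 0 of 10 at an SD of 0.5 or more. Their leading members were Bok (169 ± 29.6 TPM) and Spock1 (107 ± 11.4 TPM). All 18 interneuron genes were above 1 TPM, led by the neuropeptide genes Cck (1533 ± 260 TPM), Sst (1442 ± 110 TPM) and Npy (380 ± 51.8 TPM). Gad1, the enzyme that makes GABA, stood at 214, 236 and 205 TPM, a narrow range. Pvalb, of fast-spiking interneurons, was lower in control 1 at 50.3 TPM than in controls 2 and 3 at 91.6 and 96.6 TPM.

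Genes that mark neighbouring tissue were also measured. The striatal gene Ppp1r1b stood at 58.2 ± 21.5 TPM and Drd2 at 1.95 ± 0.502 TPM, and the thalamic gene Tcf7l2 stood at 5.80 ± 1.99 TPM. Calb2, on the thalamic list and also made by interneurons, stood at 105 ± 19.1 TPM. Of the neocortex and subiculum genes, Ntng2 stood at 56.0 ± 16.5 TPM, Lamp5 at 39.2 ± 3.73 TPM and Fezf2 at 30.6 ± 11.7 TPM. Ppp1r1b, Calb2 and Ntng2 lay above the upper quartile of all genes. Several of these genes are also expressed inside the hippocampus, and their source was not tested.

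Myelin genes separated control 1 from the other controls. Myelinating oligodendrocytes wrap axons, and their 16 genes summed to 10092, 14924 and 16825 TPM in controls 1, 2 and 3. All 16 were lowest in control 1, and all 16 were lower there than in any of the other 8 libraries, whose exposed members summed to between 13918 and 19969 TPM. Mog, a surface protein of the outer sheath, stood at 137, 294 and 287 TPM. Mal, a myelin proteolipid, stood at 218, 574 and 477 TPM. Cnp, an enzyme of the uncompacted layers, stood at 703, 939 and 1103 TPM. In each case control 1 was well below the other 2, and 10 of the 16 genes had an SD of at least 0.5 against 6.45% of all genes above 1 TPM. The precursor genes did not share the pattern. The 12 genes of oligodendrocyte precursors summed to 635, 617 and 709 TPM, with 5 highest in control 1 and 7 in control 3. Pdgfra, the growth factor receptor of precursors, stood at 40.9, 22.3 and 26.4 TPM, and Gpr17, of cells about to differentiate, at 130.4, 106.1 and 127.4 TPM.

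Astrocyte, microglia and endothelial genes had a median SD of 0.21, 0.21 and 0.17 on the log2(TPM + 1) scale, against 0.17 for all genes above 1 TPM. The 18 astrocyte genes summed to 16680 ± 1029 TPM with 0 at an SD of 0.5 or more (6.45% of all genes), and 14 were highest in control 1 (52.5% of all genes). They include Cst3 and Apoe, which microglia also express. Clu stood at 1135 ± 61.1 TPM, Aldoc at 1065 ± 122 TPM and the glutamate transporter gene Slc1a2 at 666 ± 151 TPM. The 16 microglia genes summed to 807 ± 56.1 TPM, of which 0 had an SD of at least 0.5. The complement genes C1qa and C1qb stood at 98.8 ± 7.19 and 97.9 ± 9.47 TPM. The 15 endothelial genes summed to 1719 ± 84.7 TPM, and Cldn5, a tight junction protein of the blood-brain barrier, stood at 116 ± 8.85 TPM. The 11 pericyte and smooth muscle genes summed to 197 ± 35.7 TPM, with Vtn at 87.2 ± 16.8 TPM. The 11 genes of vascular and meningeal fibroblasts summed to 203 ± 31.9 TPM, and 4 of them had an SD of at least 0.5. Igf2, the growth factor gene among them, stood at 72.6, 50 and 103.1 TPM. Of 7 genes of perivascular macrophages 5 passed 1 TPM, and the 7 summed to 12.5 ± 2.24 TPM.

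Choroid plexus and ependymal genes were high in control 3. Choroid plexus hangs in the ventricles beside the hippocampus and makes cerebrospinal fluid. All 17 of its 18 genes that passed 1 TPM, and all 10 ependymal genes, were highest in control 3, as were 23.3% of all genes. The threshold itself was passed by many of these only through control 3, so the count is a description. Folr1, a folate receptor, stood at 0.80, 0.71 and 14.3 TPM. Kcnj13, a potassium channel, stood at 0.47, 0.42 and 25.3 TPM. Enpp2, which makes lysophosphatidic acid, stood at 99.3, 106.4 and 461.0 TPM. Controls 1 and 2 were close to each other for all 3 genes. Exposed libraries ran from 1.68 to 62.9 TPM for Folr1, and 0 of the 17 choroid genes were higher in control 3 than in every exposed library. Of the ependymal genes 6 were. Foxj1, the regulator of motile cilia, stood at 12.2, 8.51 and 25.5 TPM.

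**Figure D3:**
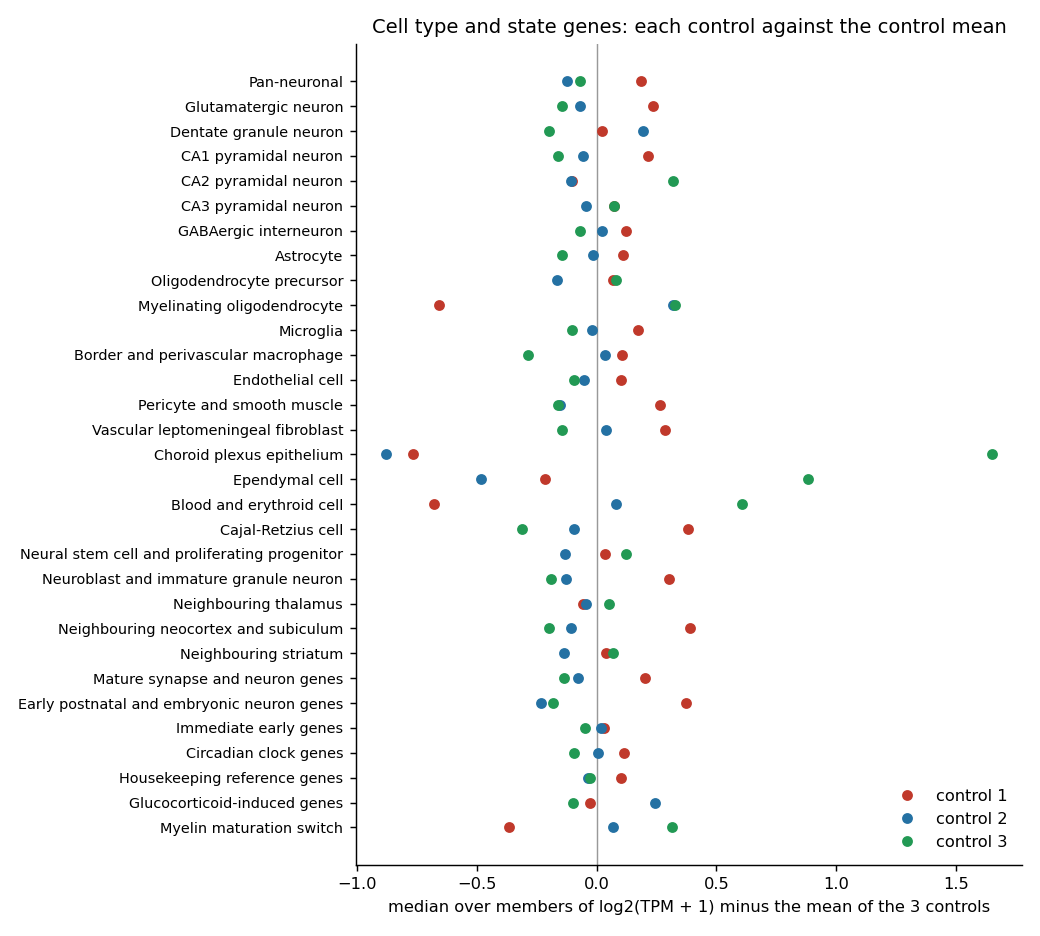
For each gene list, the median over its members of log2(TPM + 1) minus the mean of the 3 controls (horizontal axis), 1 point per control. Control 1 stands at -0.66 for myelinating oligodendrocyte genes and control 3 at 1.65 for choroid plexus genes, while most lists lie within 0.4 of 0.

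Pairs of genes that change over during postnatal maturation were compared by level. Dcx, of migrating neuroblasts, stood at 15.3 ± 4.51 TPM and Rbfox3, of mature neurons, at 181 ± 21.5 TPM, a log2 ratio of 3.51 ± 0.22. Mki67, a proliferation gene, stood at 1.37, 1.43 and 1.49 TPM, near the threshold in every control. The RNA-binding and reprogramming genes Igf2bp1, Igf2bp3 and Lin28b of embryonic neurons were below 1 TPM. Slc12a5, the chloride exporter that makes GABA inhibitory, exceeded the importer gene Slc12a2 by 2.23 ± 0.63 on the log2 scale. By library the ratio was 2.93, 2.06 and 1.71 in controls 1, 2 and 3, and which cells gave each transcript was not tested. Dlg4, the main scaffold of mature synapses, exceeded Dlg3 by 2.17 ± 0.17. Gria2, whose subunit makes AMPA receptors calcium-impermeable, was below Gria1 by a log2 ratio of -0.78 ± 0.12.

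The NMDA receptor pair varied widely between controls in its levels. Grin2b, the early subunit, stood at 27.5, 4.51 and 1.75 TPM, and Grin2a, the later one, at 37.3, 11.2 and 4.18 TPM. Both had the same order of libraries, with control 1 several times above the others, so that the log2 ratio of Grin2a to Grin2b was 0.43, 1.15 and 0.91. Their longest annotated transcripts are 24060 bases for Grin2b and 14634 bases for Grin2a, and no 25-base word of one occurs in the other.

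Mature and early neuron genes were both mostly highest in control 1, which was the highest control for 52.5% of all genes. Of 25 mature synapse genes 22 were highest in control 1, and of 22 early neuron genes above 1 TPM 19 were also highest in control 1. Tubb3 stood at 747, 395 and 451 TPM and Stmn1 at 549, 654 and 618 TPM. Stmn1 was the 1 early gene that was lowest in control 1. The 14 genes of neuroblasts and immature granule neurons summed to 1657 ± 247 TPM, with 12 highest in control 1. Stem and progenitor genes summed to 577 ± 39.1 TPM, and their median SD was 0.19 on the log2 scale, against 0.17 for all genes. The highest were Hopx, a homeodomain gene of quiescent stem cells and astrocytes, at 193 ± 26.0 TPM and Fabp7, a fatty acid carrier gene of radial glia, at 173 ± 10.3 TPM. Reln, of Cajal-Retzius cells and interneurons, stood at 28.1, 12.5 and 10.9 TPM.

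The list of immediate early genes, many of which neurons switch on within minutes of firing, was led by Egr1 at 104 ± 9.30 TPM. Jund came next at 88.4 ± 1.45 TPM, and its response to activity was not tested. Of the 34 immediate early genes above 1 TPM, 2 had an SD of at least 0.5, close to the 6.45% of all genes. These were Egr3 (77.6, 40.0 and 40.0 TPM) and Nr4a3 (49.3, 22.1 and 22.0 TPM), both high in control 1 among the controls. They were not low in the exposed libraries. On the log2(TPM + 1) scale the exposed mean was 6.43 against 5.67 in control for Egr3, and 5.81 against 4.90 for Nr4a3. Fos stood at 7.26, 9.27 and 7.23 TPM, Arc at 69.9, 84.5 and 73.2 TPM, and Junb at 61.3, 67.6 and 54.3 TPM, each highest in control 2 by a small margin. Of 27 immediate early promoters in the table, 2 held TGACGTCA, those of Dusp1 (chr17:26508473-26508722 on the minus strand) and Btg2 (chr1:134079156-134079405 on the minus strand). That is 7.41%, against 2.78% of the promoters of genes above 1 TPM and 1.62% of all promoters. With 2 matches no difference is read from these shares. The stretches of Dusp1 and Btg2 are shown with the cAMP response element in capitals, and whether cAMP signalling acts through it here was not tested.

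Dusp1: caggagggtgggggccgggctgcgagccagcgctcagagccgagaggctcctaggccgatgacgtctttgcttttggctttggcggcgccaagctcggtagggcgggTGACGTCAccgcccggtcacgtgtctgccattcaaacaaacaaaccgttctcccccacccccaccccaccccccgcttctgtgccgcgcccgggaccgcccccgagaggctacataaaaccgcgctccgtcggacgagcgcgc

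Btg2: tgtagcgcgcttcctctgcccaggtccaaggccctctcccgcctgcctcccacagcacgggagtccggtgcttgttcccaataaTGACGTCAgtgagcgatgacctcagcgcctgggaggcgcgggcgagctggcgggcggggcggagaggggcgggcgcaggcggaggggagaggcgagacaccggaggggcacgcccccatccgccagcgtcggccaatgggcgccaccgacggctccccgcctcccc

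Dusp1, a MAP kinase phosphatase gene, stood at 16.2, 17.0 and 11.3 TPM, and Btg2, an antiproliferative gene, at 12.5, 14.4 and 11.1 TPM. Both were lowest in control 3. The serum response element, by its CArG letters, stood in 1 of the 27 promoters, that of Dusp5, against 1.40% of all promoters. Of 13 glucocorticoid-induced genes above 1 TPM, 11 were highest in control 2, as were 24% of all genes. Sgk1, a kinase gene of this list, stood at 49.9, 80.6 and 68.4 TPM, and Fkbp5, which restrains the receptor, at 49.3, 56.2 and 45.8 TPM. Of 16 circadian clock genes 0 had an SD of at least 0.5, and they summed to 669 ± 43.6 TPM.

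Between the 3 controls the median SD of log2(TPM + 1) was 0.17, against 0.14 within the exposed groups. An SD of at least 0.5 was found for 904 genes (6.45%) among controls and for 403 (2.87%) within exposed groups, with 252 in both, which is 27.9% of the first and 62.5% of the second. Without control 1 the count among controls was 526. The exposed value pools 2 groups and so rests on more libraries than that of the 3 controls. Low genes varied more, with 12.7% of those at 1 to 10 TPM at or past 0.5 against 1.81% at 100 to 1000 TPM. Control 1 was the library farthest from the middle value for 543 of the 904 genes, control 3 for 254 and control 2 for 107. Over all genes above 1 TPM control 1 was farthest for 56.6%. Controls 2 and 3 were 2-fold or more apart for 262 genes, controls 1 and 2 for 399 and controls 1 and 3 for 566.

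**Figure D4:**
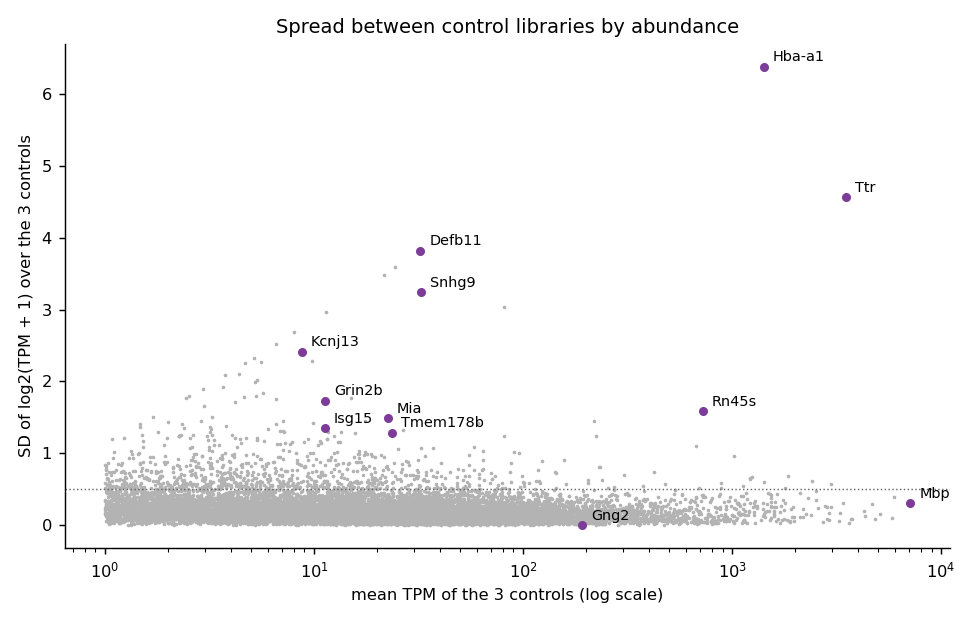
SD of log2(TPM + 1) over the 3 controls against their mean TPM (log scale), 1 point per gene; the dotted line marks an SD of 0.5. Hba-a1 (6.38) and Ttr (4.56) stand far above genes of like abundance, and Gng2 lies near 0.

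The most variable gene, Hba-a1, has a near-identical copy in Hba-a2. Hba-a1 and Hba-a2 both encode the alpha chain of adult haemoglobin, which in brain RNA comes largely from blood. Hba-a1 was listed at 0 in control 1 and stood at 2333 and 1908 TPM in controls 2 and 3. Hba-a2 stood at 1835, 744 and 498 TPM, highest where Hba-a1 was listed at 0. Their sum was 1835, 3078 and 2406 TPM, so the spread of the pair was far smaller than that of Hba-a1 alone. Of the 25-base words of the longest Hba-a2 transcript, 92.3% also occur in that of Hba-a1, so the split of reads between them is uncertain, and its part in the spread was not tested. The promoters show the same duplication. The 250 bases upstream of Hba-a1 (chr11:32283422-32283671 on the plus strand) and of Hba-a2 (chr11:32296242-32296491 on the plus strand) are identical over 247 bases once shifted by 3. Capitals mark the 3 bases that fall outside the shared stretch, at the start of the Hba-a1 window and at the end of the Hba-a2 window.

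Hba-a1: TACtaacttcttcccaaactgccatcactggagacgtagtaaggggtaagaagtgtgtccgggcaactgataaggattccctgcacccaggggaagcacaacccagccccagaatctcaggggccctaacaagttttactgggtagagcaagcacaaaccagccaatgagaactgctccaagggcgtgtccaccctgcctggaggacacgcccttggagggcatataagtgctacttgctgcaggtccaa

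Hba-a2: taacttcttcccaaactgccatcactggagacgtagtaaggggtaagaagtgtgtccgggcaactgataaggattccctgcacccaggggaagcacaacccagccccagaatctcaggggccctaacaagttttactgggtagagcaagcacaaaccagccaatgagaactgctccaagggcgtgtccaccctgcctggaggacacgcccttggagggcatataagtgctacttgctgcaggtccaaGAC

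The beta-globin entries kept a steady ratio. Beta-s stood at 1415, 2056 and 1656 TPM and Hbb-b1 at 260, 367 and 300 TPM, both highest in control 2. Oaz1-ps, a processed copy of Oaz1, was lowest in control 1, where Oaz1 was highest. Oaz1-ps stood at 52.2, 309.5 and 297.2 TPM and Oaz1 at 488, 355 and 310 TPM, with sums of 540, 664 and 607 TPM, and 86.5% of the 25-base words of Oaz1-ps occur in Oaz1.

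The other variable genes fell into groups by the control that held them. Control 3 held the ventricular genes Ttr, Calml4 (4.12, 3.26 and 37.7 TPM), Mia (6.04, 11.0 and 50.5 TPM), Kcnj13, Wfdc2, Krt18, Kcne2, Clic6 and Folr1. It also held the beta-defensin genes Defb11 (listed at 0 in controls 1 and 2 and at 96.9 TPM in control 3) and Defb9. Snhg9, a short non-coding host gene, stood at 34.6 and 62.5 TPM in controls 1 and 3 and was listed at 0 in control 2. Control 1 held the long transcripts of Grin2a, Grin2b, Bmpr2 (28.8, 7.42 and 4.23 TPM) and Tmem178b (50.5, 9.39 and 10.7 TPM), and the ribosomal RNA precursor Rn45s (1658, 313 and 207 TPM). Lars2, a mitochondrial leucyl-tRNA synthetase gene, followed it at 134.6, 28.6 and 20.2 TPM.

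Control 2 held interferon-stimulated genes, which defend cells against viruses. Isg15 stood at 7.89, 23.1 and 2.71 TPM, and the exposed libraries lay between 3.71 and 7.47 TPM. Ifit3 stood at 5.73, 25.5 and 3.86 TPM, with exposed libraries between 4.93 and 18.1 TPM. In a list of 22 such genes written after these values were seen, 19 were above 1 TPM, and their sum was 137, 372 and 129 TPM. All 19 were highest in control 2, as were 24% of all genes. Some, such as Usp18 (0.77, 6.29 and 0.62 TPM), passed the threshold only through control 2, so the count is a description. Irf7 stood at 2.78, 16.2 and 2.53 TPM and Bst2 at 15.3, 55.4 and 23.7 TPM. Of the 16 microglia genes, 6 were highest in control 2, against 24% of all genes, and the cell source of the interferon-stimulated transcripts was not tested.

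At the other end, among genes of at least 100 TPM, the smallest spread belonged to Gng2 (191.7, 191.5 and 191.4 TPM), a G protein gamma subunit, and Grik5 (223.4, 223.5 and 223.0 TPM), a kainate receptor subunit. Atp6v1d, Gars, Mtch1, Prrt2, Eif3i and Nap1l4 followed. With 3 libraries such closeness ranks genes and says little of their spread elsewhere: Gng2 ran from 191 to 229 TPM in the exposed libraries. Of 15 housekeeping reference genes, Rpl13a alone had an SD of at least 0.5, at 563, 1090 and 1006 TPM. Hprt stood at 208 ± 5.88 TPM and Tbp at 19.3 ± 1.68 TPM.

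Transcript length moved with the difference between control 1 and the other controls. Over 13170 genes with an annotated length, the deviation of a gene from its control mean correlated with length with a Spearman rho of 0.43 in control 1, -0.25 in control 2 and -0.38 in control 3. These are descriptions across genes, which are not independent, and the 3 deviations of a gene sum to 0. In genes of 8000 bases and over the median deviation was 0.28, -0.11 and -0.18 in controls 1, 2 and 3, and in genes under 1000 bases it was -0.18, 0.06 and 0.10. Measured against the same control mean, all 6 exposed libraries lay on the side of control 1, from 0.10 to 0.39 for the long genes and from -0.08 to -0.25 for the short ones. By length, controls 2 and 3 therefore stood apart from the other 7 libraries. The 480 genes with an SD of at least 0.5 that were highest in control 1 had a median length of 5294 bases, against 3433 bases for all genes and 1796 bases for those highest in control 3. The part of length in the class and gene differences above was not tested.

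**Figure D5:**
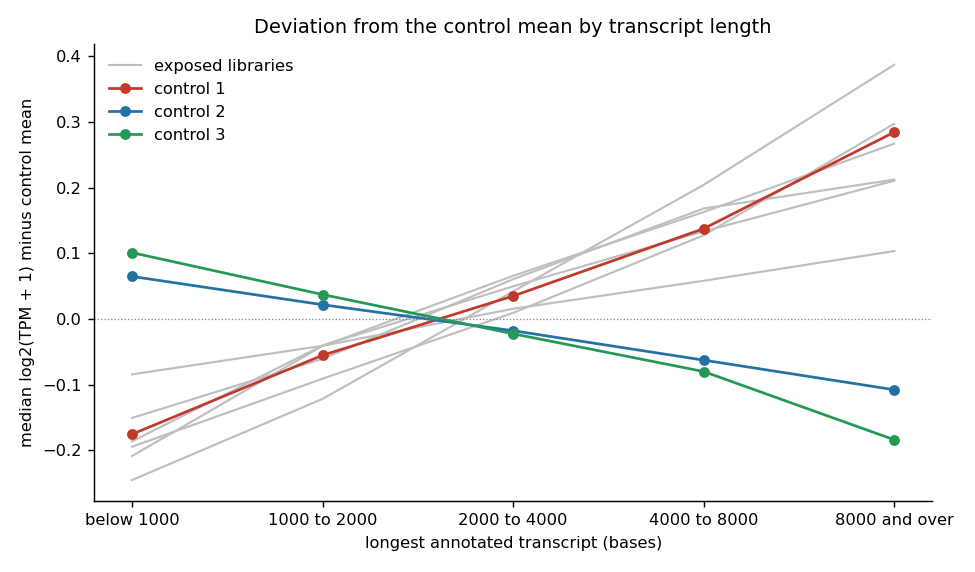
Median over genes of log2(TPM + 1) minus the control mean (vertical axis) by longest annotated transcript in bases (horizontal axis), 1 line per library. Control 1 and the 6 exposed libraries rise from left to right, with control 1 reaching 0.28, and controls 2 and 3 fall.

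Libraries were also compared by their replicate number across groups. In 11.2% of tested genes the 3 libraries numbered 1 lay above or below all 6 others, against 0.774% for number 2 and 1.24% for number 3. Rn45s was one of these genes. Over all tested genes the deviations of control 1 from its group mean correlated at -0.03 with those of PFOS P1-7 library 1 and at 0.36 with those of PFOS P1-7 library 2, and the highest of all pairs, at 0.67, was also differently numbered (PFOS P1-7 library 2 and PFOS P8-14 library 3). The labels do not say that a number marks a batch, and what the number stands for was not tested.

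The controls were then set against the 6 exposed libraries gene by gene. With limma on log2(TPM + 1), 14336 genes were tested and 0 passed at a Benjamini-Hochberg adjusted p below 0.05 (0%), the smallest adjusted p being 0.137. Without adjustment, 2857 genes (19.9%) had a p below 0.05, of which 949 were higher and 1908 lower in control. The median difference was -0.07 and the median standard error 0.11. Nearest to the threshold were Atp11b, a phospholipid flippase gene, at 44.1, 40.3 and 39.8 TPM in the controls against 55.2 to 62.0 TPM in the exposed, and Npm3, a nucleolar chaperone gene, at 28.4, 37.7 and 35.8 TPM against 18.0 to 23.3 TPM. Both genes were picked for their small p, so the gap between their groups adds no support. The adjusted p by limma was 0.137 for both, a value shared with many other genes. Ccbe1 and Dsp were next on the lower side. Ctla2a and Ccl27b were next on the higher side, and Ccl27b has values identical to Gm13306 and LOC100861978.

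Leaving out control 1 changed that count. With controls 2 and 3 alone, 3075 of 14286 genes (21.5%) passed by limma, 792 higher and 2283 lower in control. Those higher in control had a median longest transcript of 1598 bases and those lower 5151 bases, against 3428 bases for all genes tested. Leaving out control 2 or control 3 instead gave 0 genes.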

How the data were processed

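Hippocampal RNA of 9 samples (3 per group) was made into libraries with a stranded mRNA kit, per the labels' protocols. The authors deposited 1 table of TPM per gene symbol, with values given to 2 decimals. The tools were RSEM 1.3.3, STAR 2.5.3a, fastp 0.21.0 and bcl2fastq with build mm10, per the submitters' processing notes. The gene annotation is not given in the sources used here. The depth of each library is unknown, so no counting interval is given and precision rests on 3 libraries.

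Means, SDs and ranks were computed with Python 3.11.15, pandas 2.3.3 and scipy 1.17.1. Spread was taken as the SD of log2(TPM + 1), with a pseudocount of 1, over genes with a control mean of at least 1 TPM. Classes were set by symbol patterns and each gene entered the first that matched. limma 3.58.1 in R 4.3.3 was fitted to all 9 libraries with a mean per group and a mean-variance trend, on genes at 1 TPM or more in at least 3 libraries, and the contrast was control minus the mean of both exposed groups. It was tested on simulated data. Transcript lengths are from GENCODE vM21 (93.9% of symbols above 1 TPM had a length). Gene types and promoters are from RefSeq, the promoters using the first entry per symbol of 27025. A count of 22 genes had values identical to another symbol.

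Named genes were the 25 most abundant, the 3 most abundant of each list, those of highest and lowest SD, the maturation pairs and families, the smallest p-values and the neighbours of the threshold; some of these are not reported here. The other genes of those lists that are named, the interferon list and the promoters shown were chosen after their values were seen. All gene lists and the choice of samples were made with earlier results of these data known. Alternatives covered thresholds, pseudocounts, scaling, filters, the replicate number and leaving out each library.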

Additional observations from a re-analysis of the deposited data

How the results depend on the processing

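The number of genes kept was 14821 at 0.5 TPM and 11369 at 5 TPM, against 14023, and the share of the top 50 genes was 14.1 to 15.2% under its alternatives. The count of classes past an adjusted p of 0.05 was 0 under each alternative, in a design that could rarely pass, so it says nothing of stability. The count of genes with an SD of at least 0.5 among controls moved from 904 to 1373 with a pseudocount of 0.1, to 346 with a pseudocount of 5 and to 345 among genes of at least 10 TPM. Leaving out 1 control gave 526 to 1305 genes, the lowest without control 1. Without small RNA, globin, choroid plexus and ependyma genes, an alternative chosen after seeing the data, it was 873. The count of genes called between control and exposed libraries by limma was 0 under each pseudocount, filter and scaling, and ranged from 0 to 3075 when 1 library was left out. The value of 3075 came without control 1; the other 8 gave 0.

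With the replicate number as a block, 0 genes passed by limma and the smallest adjusted p was 0.0863. Of 9 same-numbered pairs of libraries, 5 deviated together with a correlation above 0.1, over a range of -0.47 to 0.53, so the number was not taken as pairing the samples. The alternative without mitochondrially encoded genes could not be run, since 0 symbols matched. TPM keep no depth, so the precision of low values cannot be stated.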
